A study of Mus musculus with 22 samples.

Results

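Glucagon at 30 µg/d was given to mice that cannot make the hormone, and their liver mRNA was compared with that of knockout mice given none. The comparison used 7 of the 22 libraries: 4 from Gcg KO liver with glucagon at 30 µg/d (libraries 11 to 14, called low-dose knockout here) and 3 from Gcg KO liver with no infusion (libraries 4 to 6, called uninfused knockout). They were chosen by the genotype and infusion in their titles, and all 24475 listed genes were considered. Beside them stand 3 wild type libraries with no infusion (1 to 3), 4 wild type libraries at 30 µg/d (7 to 10) and 4 Gcg KO libraries at 150 µg/d (19 to 22). The 4 wild type libraries at 150 µg/d (15 to 18) entered the statistical fit of all 22 libraries and its estimate of spread. They are not compared here. All 7 libraries of the main comparison lack Gcg, the gene for proglucagon, which also encodes the glucagon-like peptides, and glucagon is the agent the labels name. The sources used here do not give age, sex, strain, route or length of infusion. Whether each library is a different mouse is not stated either, so the tests measure the spread among libraries, which may be partly technical.

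Glucagon is released from pancreatic alpha cells when blood glucose is low or amino acids are high. It binds the receptor Gcgr on hepatocytes, raises cyclic AMP and activates protein kinase A, and so favours glucose output, amino acid breakdown and urea formation over glucose use and lipid synthesis. Hepatocytes near the portal vein carry much of the urea cycle and gluconeogenesis, while those near the central vein carry glutamine synthesis and much of drug metabolism. The series asks how glucagon contributes to that division, called zonation.

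Gcg itself was listed at 0 RPKM (a read count divided by transcript length and by library size) in all 22 libraries, wild type liver included, so its level does not check the genotype labels. Gcgr was at 70.29, 89.38 and 89.22 RPKM in uninfused and at 85.09, 81.35, 68.73 and 84.06 in low-dose knockout liver, which overlap. Alb, the albumin gene and a hepatocyte marker, was at 19711 to 53681 RPKM in the 7 libraries, with the highest values of the groups in libraries 4 and 13. The 7 libraries held an estimated 11.1 to 14 M reads, at which 1 read of a 1 kb transcript is worth 0.071 to 0.09 RPKM, and rank correlations between replicates of these groups across genes were 0.9486 to 0.986.

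One library in each group stood apart. Genes that are higher in male than in female mouse liver had a mean log2(RPKM + 1) of 4.57 in library 4 (uninfused) and 5.92 in library 13 (low dose), against 7.5 and 8.28 in the other uninfused and 8.03 to 8.62 in the other low-dose knockout libraries. Female-biased genes had means of 4.75 and 3.12 in these libraries, against 1.04 to 1.64 in the other 5. These means cover the 22 female-biased genes with a mean of at least 0.5 RPKM over all libraries. Without libraries 4 and 13 only 14 reached that level, so high values in these libraries helped to select the genes averaged. The female-biased cytochrome Cyp2b9 was at 111.2 RPKM in library 4 and 42.92 in library 13, and at no more than 0.6635 in the others. The Y-linked gene Ddx3y was at 10.31 to 14.52 RPKM in all 7 libraries and the X-inactivation RNA Xist at no more than 0.0301. Counts of calls, and many of the list medians and gene differences where these libraries were extreme or moved the value, are therefore also given without libraries 4 and 13. The low-dose differences of some genes where 1 of them was extreme, such as Lpin1, Pklr and Cyp2c29, are given only with them.

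The low dose was followed by a short list of called genes, most of them falls. Klf10, a Krüppel-like transcription factor first known as an early response gene of TGF-beta, Txnip, which binds thioredoxin and restrains glucose uptake, and 6 other genes fell. Atxn1, which encodes the transcriptional regulator ataxin-1, and Dnajc1, a J-domain chaperone partner of the endoplasmic reticulum membrane, rose. Limma was fitted to log2(RPKM + 1) of the 11590 genes with a mean of at least 0.5 RPKM, and genes under an adjusted p of 0.05 were called. The 10 called genes are 0.0863% of those tested, with 2 higher (0.0173%) and 8 lower (0.0690%), and 6 of them differed by at least 2-fold on that scale. At an unadjusted p under 0.05 there were 1174 genes, 457 higher and 717 lower, and the median log2 difference of all genes was −0.02. Of all 11590 genes, 5125 had a higher and 6462 a lower mean at the low dose. Counts given below for gene lists are to be read against these. Without libraries 4 and 13 there were 3 called genes, 0.0260% of 11547, namely Klf10, Tmem51 and Aim1l, all lower and all among the 10.

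Klf10 (chromosome 15, 38291464 to 38300711, GRCm38) was at 15.24, 17.86 and 8.981 RPKM in uninfused and at 3.282, 4.046, 1.887 and 3.968 in low-dose knockout liver. Every low-dose library lay below every uninfused one, the mean being 4.26 times lower. The log2 difference was −1.79 ± 0.22 (SE, limma adjusted p = 0.00176), and −1.53 (adjusted p = 0.0253) without libraries 4 and 13. The low-dose level was also below the 9.61 ± 0.56 RPKM (SD, n = 3) of uninfused wild type liver (log2 difference −1.34, limma adjusted p = 0.0098). At 150 µg/d Klf10 was at 3.69 ± 0.68 RPKM (SD, n = 4), and the difference between doses was 0.15 (95% interval −0.28 to 0.58).

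Txnip (chromosome 3, 96557957 to 96561857) was at 163.8, 165.4 and 93.93 RPKM in uninfused knockout liver. It was at 55.67, 22.59, 18.1 and 19.07 RPKM at the low dose, where library 11 was the highest and all 4 lay below the uninfused range. The mean was 4.89 times lower, with a log2 difference of −2.36 ± 0.40 (SE, limma adjusted p = 0.0199). With libraries 4 and 13 left out it was −2.07 (adjusted p = 0.215). Uninfused wild type liver had 28.9 ± 11 RPKM (SD, n = 3), close to the low-dose mean of 28.9 ± 18 (n = 4), and the log2 difference between them had a 95% interval of −0.93 to 0.74.

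Txnip is a textbook target of ChREBP, the glucose-sensing transcription factor, which binds pairs of E-box-like elements set 5 bases apart. The 250 bases before its start in RefSeq (GRCm38.p6, chr3:96557707-96557956, plus strand) are shown because this gene had the largest log2(RPKM + 1) difference among called genes and its promoter holds such a pair.
Txnip: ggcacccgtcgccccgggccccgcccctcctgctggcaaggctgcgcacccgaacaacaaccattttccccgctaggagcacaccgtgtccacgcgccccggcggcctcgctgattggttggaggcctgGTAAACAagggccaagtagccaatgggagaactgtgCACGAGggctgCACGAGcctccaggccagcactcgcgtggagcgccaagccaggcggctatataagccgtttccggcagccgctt
The capitals mark, first, GTAAACA, the minus-strand form of the forkhead letters TGTTTAC, 121 to 115 bases before the start. They then mark a pair of CACGNG elements with 5 bases between them, 85 to 69 bases before it. Searched on both strands, that paired motif, chosen after the sequence was seen, is in 15 of 32851 RefSeq promoter windows of this length (0.05%), and the forkhead letters are in 3.17%. The motif has both elements in the same direction, so pairs in opposite directions are not counted. Of the 10 called genes, 8 had 13 windows in the table, with Klf10 and Atxn1 not among them. The plain E-box CACGTG was in 1 of these 13 windows (Dnajc1) against 6.02% of all windows, the cyclic AMP response element TGACGTCA in 0 of 13 against 1.55%, and its shorter form TGACG in 3 of 13 (1 each of Aim1l, Mapre3 and Rps6ka1) against 17.77%. The full element contains the shorter one. These matches describe letters and not binding.

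Among the other falls, Tmem51, a membrane protein gene (chromosome 4, 142030990 to 142084928), was at 9.374, 6.658 and 6.068 RPKM without infusion and at 1.563, 2.086, 3.501 and 2.157 at the low dose. The groups did not overlap, and library 13 was the highest of the low-dose libraries. The log2 difference was −1.34 ± 0.20 (SE, limma adjusted p = 0.00616), and −1.33 (adjusted p = 0.0188) without libraries 4 and 13. Tmem51 was also lower than in uninfused wild type liver, which had 5.42 ± 0.98 RPKM (SD, n = 3; log2 difference −0.97, limma adjusted p = 0.0246).

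Aim1l, named Crybg2 in RefSeq and a member of the beta/gamma-crystallin domain family (chromosome 4, 134060731 to 134092504), was at 2.042, 4.095 and 1.634 RPKM without infusion. Its low-dose values were 0.0373, 0.0335, 0.8329 and 0.3044 RPKM, of which the lowest are below the worth of 1 read of a 1 kb transcript. All lay below the uninfused values. The log2 difference was −1.44 ± 0.22 (SE, limma adjusted p = 0.00929), and −1.71 (adjusted p = 0.017) without libraries 4 and 13. Uninfused wild type liver had 0.40 ± 0.03 RPKM (SD, n = 3).

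Fam131c (chromosome 4, 141368192 to 141384174) was at 3.796, 4.273 and 4.451 RPKM without infusion and at 1.216, 1.038, 1.136 and 1.097 at the low dose. Both groups were tight and well apart, and wild type liver without infusion had 1.25 ± 0.30 RPKM (SD, n = 3). The log2 difference was −1.28 ± 0.24 (SE, limma adjusted p = 0.04), and −1.34 (adjusted p = 0.206) without libraries 4 and 13.

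Rps6ka1, which encodes the RSK1 kinase downstream of ERK (chromosome 4, 133847290 to 133887797), was at 8.672, 7.481 and 6.177 RPKM without infusion and at 3.361, 3.688, 3.891 and 4.012 at the low dose. Its groups did not overlap, and the mean was 1.99 times lower (log2 difference −0.83 ± 0.14 SE, limma adjusted p = 0.0204). Dhrs3, which reduces retinal to retinol (chromosome 4, 144892534 to 144928209), was at 94.69, 83.2 and 76.6 RPKM against 49.53, 56.52, 42.33 and 55.65. That is 1.66 times lower in the mean, again without overlap (log2 difference −0.73 ± 0.13 SE, limma adjusted p = 0.0376). Mapre3, which encodes the microtubule end-binding protein EB3 (chromosome 5, 30814606 to 30866106), was at 15.08, 14.17 and 13.19 RPKM against 10.15, 8.957, 10.44 and 10.8. It fell the least of the 8, with a mean 1.40 times lower (log2 difference −0.45 ± 0.08 SE, limma adjusted p = 0.0245). Without libraries 4 and 13 these log2 differences were −0.74, −0.56 and −0.42, with limma adjusted p of 0.206, 0.343 and 0.206.

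Of the rises, Atxn1 (chromosome 13, 45549755 to 45964991) was at 1.574, 2.358 and 2.367 RPKM in uninfused and at 5.333, 5.616, 5.041 and 7.072 in low-dose knockout liver. The groups were far apart, with the mean 2.75 times higher at the low dose (log2 difference 1.13 ± 0.16 SE, limma adjusted p = 0.00616). It was 1.05 (adjusted p = 0.0799) without libraries 4 and 13. Wild type liver was at 3.433, 4.242 and 2.808 RPKM without infusion and at 1.613, 3.12, 2.144 and 2.213 at 30 µg/d, where the mean was lower and not higher. The difference between the genotypes' responses was 1.59 (95% interval 1.11 to 2.08, limma adjusted p = 0.0167), and Atxn1 was the 1 gene called for it (0.00863% of 11590), with 1045 at an unadjusted p under 0.05. That call was lost without libraries 4 and 13, and without library 1, 2, 4, 9 or 14 alone. At 150 µg/d Atxn1 was at 2.591, 3.958, 2.678 and 2.612 RPKM, lower than at 30 µg/d by 0.78 on the log2 scale (limma adjusted p = 0.0239). Among these 5 groups, every low-dose knockout library was above every other library.

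Dnajc1 (chromosome 2, 18205634 to 18394099) was at 4.343, 4.885 and 4.58 RPKM in uninfused and at 7.504, 6.196, 6.409 and 6.142 in low-dose knockout liver. Its rise was small but without overlap, 1.43 times in the mean (log2 difference 0.43 ± 0.07 SE, limma adjusted p = 0.0199). Leaving out libraries 4 and 13 gave 0.405 (adjusted p = 0.206). Uninfused wild type liver had 5.70 ± 0.12 RPKM (SD, n = 3), between the 2 knockout groups.

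**Figure D1:**
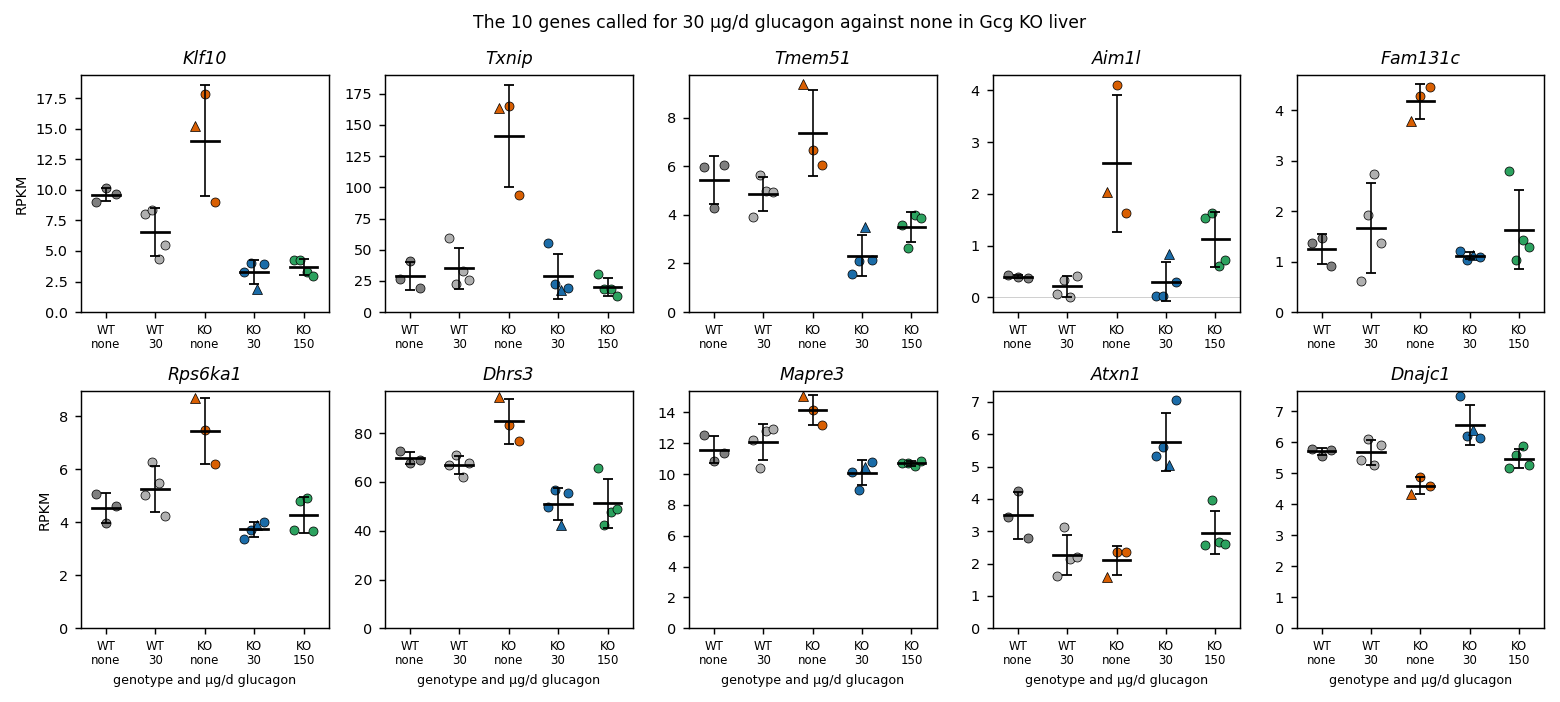
RPKM of the 10 called genes in each library (points; triangles are libraries 4 and 13), with the mean and SD of each group as bars, for wild type (WT) and Gcg KO liver by glucagon dose in µg/d. The low-dose knockout points lie clear of the uninfused knockout points in all 10 panels, and in Atxn1 they also lie above the 4 points of 150 µg/d.

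Calls rested on few libraries. Without library 4 the count was 1 (Klf10), without library 5 it was 6, without library 6 it was 33, and without library 12 it was 5. When the 7 libraries were fitted alone, Fam131c was the 1 gene called and Klf10 had a limma adjusted p of 0.214.

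Genes that respond to carbohydrate were mostly lower at the low dose. Of 11 such genes tested, 10 had a lower and 1 a higher mean, and 7 lay below every uninfused library. Among all tested genes 8.76% did not overlap between the groups, that is 5.58% below and 3.18% above. Txnip was the 1 called, and the median log2 difference was −0.66, and −0.77 without libraries 4 and 13, where no member was called. Rgs16, a regulator of G-protein signalling, was at 300.6, 221.2 and 141.5 RPKM without infusion and at 36.5, 41.57, 27.88 and 19.91 at the low dose. The low-dose values were far below the uninfused ones, yet the log2 difference of −2.76 had a 95% interval of −5.19 to −0.33 and did not pass (limma adjusted p = 0.431; −2.47 without libraries 4 and 13). Arrdc3, an arrestin-like relative of Txnip, was at 93.55, 91.56 and 98.71 against 60.27, 19.79, 45.18 and 62.3 RPKM (adjusted p = 0.43 in limma). Its uninfused values were nearly equal, and its low-dose values were spread widely below them. Pklr, the liver pyruvate kinase, was at 105.6, 153.2 and 95.52 against 54.54, 54, 83.31 and 57.47 RPKM (limma adjusted p = 0.388). Fgf21, a liver hormone of fasting and sugar intake, was at 4.863, 0.8235 and 2.076 RPKM without infusion and at 0.6562, 0.0842, 0.1523 and 0.2416 at the low dose (log2 difference −1.34, limma adjusted p = 0.09). Library 4 was the highest, and the difference was −0.86 (limma adjusted p = 0.563) without libraries 4 and 13. Tkfc, a fructose pathway kinase, and Khk, ketohexokinase, named after its values were seen, were the remaining members without overlap, with means of 167.8 and 108.6 RPKM for Tkfc and 232.6 and 203.2 for Khk. Mlxipl, which encodes ChREBP itself, was at 91.75 and 96.08 RPKM. In RefSeq windows, the paired motif printed for Txnip, with both elements in the same direction, was in 1 of the 10 members with a window, Txnip. Pairs in opposite directions were not searched for, and a Pklr window holds CACGGG and CCCGTG with 5 bases between them. CACGTG was in 4 of the 10 members (Arrdc4, Fgf21, Khk and Mlxipl), of which Arrdc4 and Mlxipl overlapped between the groups. It was in 6.02% of all windows, a share of windows and not of genes, so the 2 are unlike.

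Immediate-early and growth-arrest genes, which cells switch on within minutes of a stimulus or under stress, were lower in the mean for 24 of 25 members. Klf10 was called, and the median log2 difference was −1.01 against −0.02 for all genes. The median was −0.73 without libraries 4 and 13, with 6 members higher in the mean and Klf10 still called. At an unadjusted p under 0.05 in limma 12 members were lower, against 717 of all 11590 genes. Only 5 lay below every uninfused library (5.58% of all genes did). The list mean of log2(RPKM + 1) was 4.257, 4.071 and 2.817 in uninfused and 3.142, 3.078, 2.603 and 2.085 in low-dose knockout liver. Library 6 thus lay within the low-dose range, and uninfused wild type liver spanned 2.533 to 3.887. Gadd45b, a growth-arrest and DNA-damage gene, was at 19.87, 8.68 and 2.296 RPKM without infusion and at 3.366, 0.1891, 0.2847 and 0.3615 at the low dose. Library 11 overlapped library 6, and the log2 difference of −2.33 was not called (limma adjusted p = 0.0709; −1.56 without libraries 4 and 13). Its relative Gadd45a was at 23.83, 12.28 and 9.709 against 4.352, 4.823, 7.127 and 3.739 RPKM, without overlap (limma adjusted p = 0.115). The stress transcription factor Atf3 was at 22.27, 8.646 and 2.207 against 2.201, 1.05, 1.423 and 0.386 RPKM (limma adjusted p = 0.268), with library 6 and library 11 nearly equal. In all 3 of these genes library 4 was the highest of the 7. The log2 difference of Gadd45a was −1.37, and −1.17 without libraries 4 and 13, and that of Atf3 −2.05 and −1.41. Other members apart between the groups were Maff, a small Maf transcription factor, with means of 8.11 and 3.55 RPKM (log2 difference −0.92, and −0.38 without libraries 4 and 13), and Zfp36, which destabilises mRNA, named after its values were seen, with 132.7 and 66.8.

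Inhba, an activin subunit, was at 7.92, 8.392 and 8.611 RPKM without infusion and at 5.574, 1.618, 3.442 and 2.594 at the low dose. All low-dose values were lower, and the log2 difference was −1.19 (limma adjusted p = 0.0983), and −1.27 without libraries 4 and 13 (adjusted p = 0.353). Bhlhe40, a repressor in the circadian clock, was at 78.31, 76.37 and 74.12 against 55.25, 42.84, 30.26 and 36.42 RPKM (log2 difference −0.91, limma adjusted p = 0.0923). Its uninfused libraries, library 4 included, were nearly equal.

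**Figure D2:**
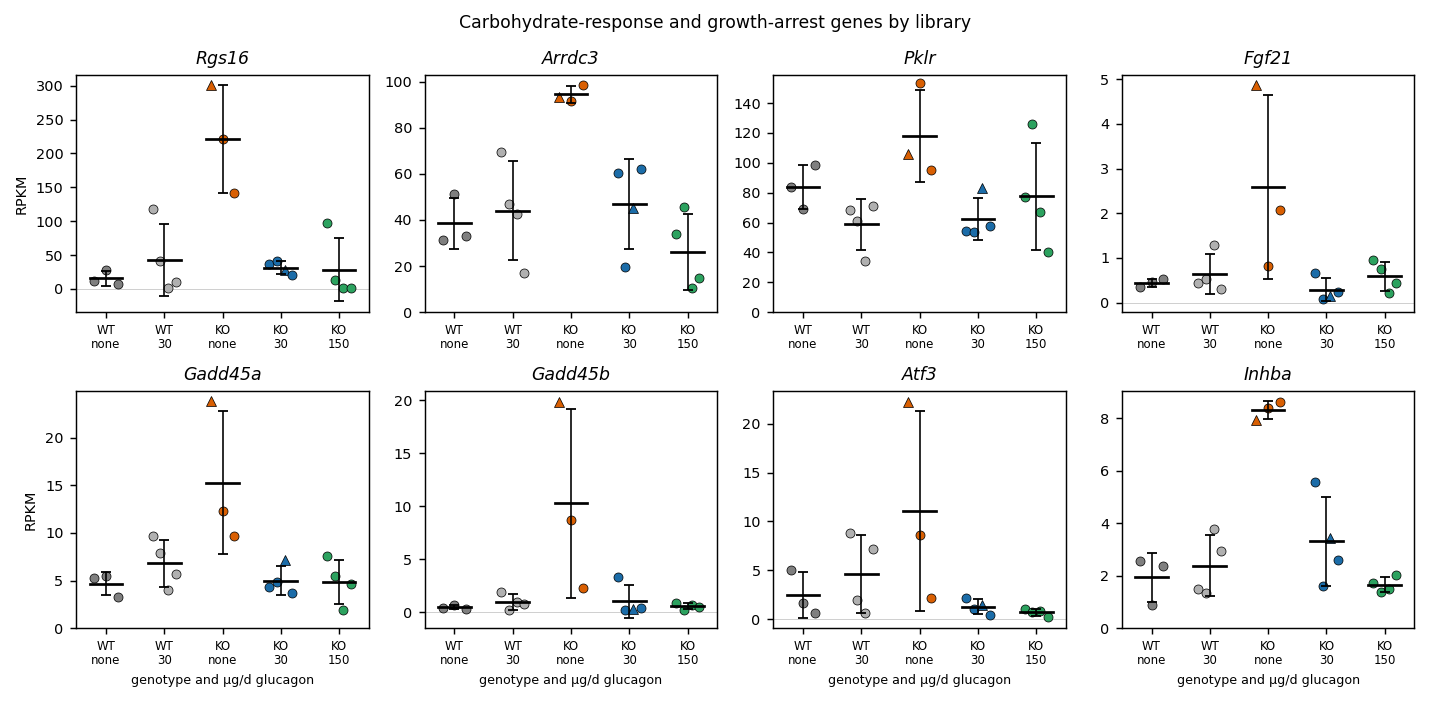
RPKM of 4 carbohydrate-response and 4 growth-arrest or hormone genes in each library (points; triangles are libraries 4 and 13) with group means and SD, by genotype and µg/d of glucagon. Low-dose knockout points lie below all uninfused knockout points except for Gadd45b, and library 4 is the highest knockout point for Rgs16, Fgf21, Gadd45a, Gadd45b and Atf3. For Atf3 the lowest uninfused and highest low-dose points nearly coincide.

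Enzymes of amino acid breakdown had mostly higher means at the low dose, and none of the 66 tested was called. The mean was higher for 56 and lower for 10, 22 lay above every uninfused library (against 3.18% of all genes) and 1 below, and 18 were higher and 1 lower at an unadjusted p under 0.05. The median log2 difference was 0.20, and 0.19 without libraries 4 and 13. Tat, which starts tyrosine breakdown, was at 189.3, 175.1 and 268.9 RPKM without infusion and at 446, 1077, 627.8 and 548.7 at the low dose. The groups were apart, with the mean 3.20 times higher (log2 difference 1.62 ± 0.41 SE, limma adjusted p = 0.155; 1.56 without libraries 4 and 13). Sds, serine dehydratase, was at 33.7, 11.88 and 24.9 against 28.45, 109, 156.8 and 51.9 RPKM, which overlap (limma adjusted p = 0.337). Gls2, the liver glutaminase, was at 44.29, 20.69 and 30.41 against 49.68, 60.42, 137.2 and 41.13 (limma adjusted p = 0.392), and library 13 was the highest for both. Got1, the cytosolic aspartate aminotransferase, was at 21.39, 9.926 and 12.47 against 16.01, 45.19, 90.88 and 18.35 RPKM, again with overlap and with library 13 the highest (limma adjusted p = 0.601). Without libraries 4 and 13 the log2 differences were 1.61 for Sds, 0.96 for Gls2 and 1.03 for Got1, against 1.67, 1.06 and 1.21 with them. Smaller differences without overlap included those of Shmt1, of serine and glycine exchange (66.2 to 88.2 RPKM in the mean), Ivd, of leucine breakdown (50.8 to 68.7), and Hpd, of tyrosine breakdown (771.2 to 1012).

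Oat, ornithine aminotransferase, was the clearest case of a level between the uninfused groups. It was at 52.1, 71.92 and 80.64 RPKM in uninfused and at 182.5, 143.5, 209.9 and 120.9 in low-dose knockout liver, against 555.5, 752.5 and 722 in uninfused wild type. The low-dose values lay above the uninfused knockout ones and below all wild type ones. Against uninfused knockout the log2 difference of 1.25 ± 0.40 (SE) did not pass (limma adjusted p = 0.271), and it was 0.94 without libraries 4 and 13. Against uninfused wild type Oat was lower by 2.06 on the log2 scale (limma adjusted p = 0.0163). At 150 µg/d it was at 244.6, 910.4, 822.4 and 855.3 RPKM, higher than at 30 µg/d by 1.96 (limma adjusted p = 0.0182).

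All 8 urea cycle genes tested had a higher mean at the low dose, and none was called. Of them 5 lay above every uninfused library (against 3.18% of all genes). At an unadjusted p under 0.05 in limma 4 were higher, against 457 of all 11590 genes. The median log2 difference was 0.46, with and without libraries 4 and 13. Cps1, which makes carbamoyl phosphate, was at 652.9, 467 and 510.7 RPKM without infusion and at 706.3, 819.4, 1323 and 657.3 at the low dose (limma adjusted p = 0.431). Ass1, which makes argininosuccinate, was at 790.5, 486.2 and 775.2 against 896.7, 1126, 2223 and 919.9 (limma adjusted p = 0.457). Library 13 was the highest for both, and their log2 differences of 0.65 and 0.84 were 0.57 and 0.67 without libraries 4 and 13. The means of Asl, which splits argininosuccinate, were 177.5 and 255.9 RPKM, and those of Arg1, arginase, 448.2 and 582.2.

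Asns, asparagine synthetase, had a lower mean at the low dose, with overlap (log2 difference −0.50, and −0.76 without libraries 4 and 13). It was at 1.106, 1.251 and 2.84 RPKM in uninfused and at 0.691, 0.7038, 1.272 and 0.8312 in low-dose knockout liver, against 12.3 ± 1.86 (SD, n = 3) in uninfused wild type. It was lower than wild type at the low dose (log2 difference −2.82, limma adjusted p = 0.00968) and higher at 150 than at 30 µg/d by 1.94 (limma adjusted p = 0.0452). Amino acid transporters were mixed, with 12 of 19 higher in the mean and a median of 0.06. Slc25a47, a mitochondrial carrier of liver, had a mean of 441.7 RPKM without infusion and 212.5 at the low dose, without overlap (log2 difference −1.08, limma adjusted p = 0.0719).

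Nnmt, which methylates nicotinamide, was at 1.52, 16.42 and 32.8 RPKM without infusion and at 54.44, 48.97, 77.04 and 61.66 at the low dose. Library 4 was the lowest, and all low-dose libraries lay above the uninfused ones (log2 difference 2.41 ± 0.55 SE, limma adjusted p = 0.0983). The difference shrank to 1.201 (adjusted p = 0.45) without libraries 4 and 13.

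**Figure D3:**
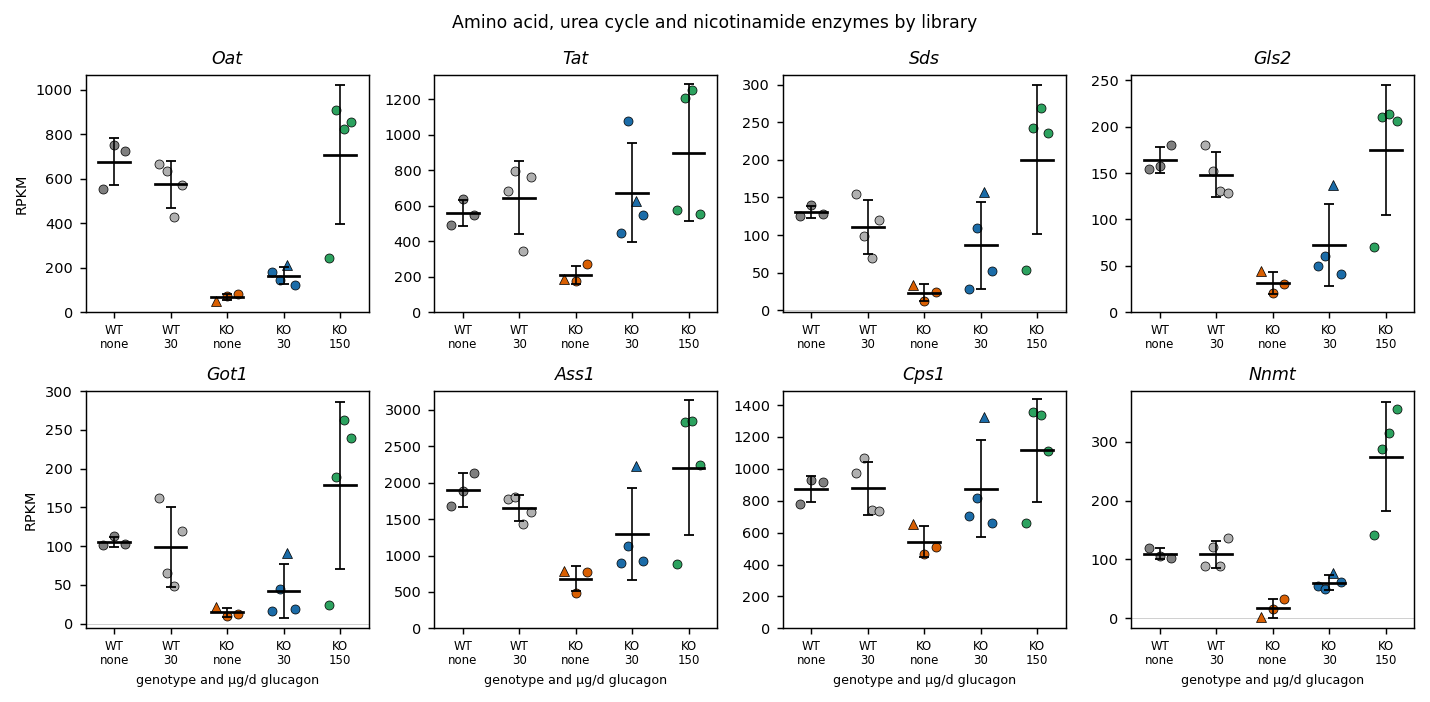
RPKM of 7 amino acid and urea cycle enzymes and of Nnmt in each library (points; triangles are libraries 4 and 13) with group means and SD, by genotype and µg/d of glucagon. For Oat all low-dose knockout points sit between the uninfused knockout and the wild type points, while for Tat they reach 446 to 1077 RPKM.

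Gluconeogenic genes had a median log2 difference of 0.13 over 16 members, with and without libraries 4 and 13, none called, with 1 higher and 0 lower at an unadjusted p under 0.05. Pck1, the cytosolic PEP carboxykinase, was at 699.8, 402.9 and 457 RPKM without infusion and at 794.4, 1685, 880.1 and 885.4 at the low dose. All 4 were higher, with library 12 far above the rest (log2 difference 0.999, limma adjusted p = 0.31; 1.30 without libraries 4 and 13). G6pc, glucose-6-phosphatase, had a mean of 250.4 RPKM without infusion and 176.1 at the low dose, with overlap (limma adjusted p = 0.761). Ppargc1a, the coactivator PGC-1alpha, was at 1.21 ± 0.64 (SD, n = 3) and 1.45 ± 0.70 RPKM (n = 4). Of 25 genes of glucagon and cyclic AMP signalling none was called with or without libraries 4 and 13 (median −0.05 and −0.01), with 1 higher and 4 lower at an unadjusted p under 0.05. Fgf21 and Rgs16, already counted with the carbohydrate genes, are among these 4. Pde4d, a phosphodiesterase that breaks down cyclic AMP, was at 2.262, 1.116 and 0.7399 against 0.4282, 0.5206, 0.4602 and 0.4761 RPKM, without overlap (limma adjusted p = 0.252). Library 4 was the highest, and the log2 difference of −0.64 was −0.38 without libraries 4 and 13.

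Lipid genes were lower in the mean in 3 lists, and none was called. In fatty acid oxidation and ketogenesis 28 of 30 members were lower in the mean, 7 of them at an unadjusted p under 0.05 with 0 higher, and the median log2 difference was −0.31 (−0.23 without libraries 4 and 13). Plin2, which coats lipid droplets, was at 277.8, 148.7 and 123.4 RPKM without infusion and at 118.2, 67.42, 79.79 and 90.62 at the low dose. The low-dose values were lower throughout, the lowest uninfused and highest low-dose library being close (log2 difference −0.97, limma adjusted p = 0.134; −0.59 without libraries 4 and 13). All 22 genes of cholesterol synthesis were lower in the mean, as were 6462 of all 11590 genes. Their median was −0.31 (−0.27 without libraries 4 and 13, where 3 were higher), with 1 lower and 0 higher at an unadjusted p under 0.05. Only 1 of the 22 lay below every uninfused library, against 5.58% of all genes. Hmgcs1, an early enzyme of that pathway, had means of 130.8 and 69.2 RPKM (limma adjusted p = 0.474). Of 18 fatty acid synthesis genes 15 were lower in the mean (median −0.235, and −0.28 without libraries 4 and 13), with 2 higher and 1 lower at an unadjusted p under 0.05. The 2 higher, Lpin1 and Dgat2, a triglyceride synthesis gene with means of 166 and 217.5 RPKM, lay above every uninfused library, and 0 lay below. Fasn, fatty acid synthase, was at 153.5, 119.7 and 110.7 against 42.06, 40.07, 138.4 and 51.38 RPKM, where library 13 lay within the uninfused range and the other 3 far below it (log2 difference −1.09, limma adjusted p = 0.481; −1.36 without libraries 4 and 13). Lpin1, a phosphatidate phosphatase and coactivator, went the other way, at 32.52, 19.02 and 19.99 against 63.55, 85.41, 32.66 and 74.58 RPKM (limma adjusted p = 0.297), and was higher than in uninfused wild type liver (15.2 ± 0.75 RPKM, SD, n = 3; log2 difference 1.92, limma adjusted p = 0.0385).

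**Figure D4:**
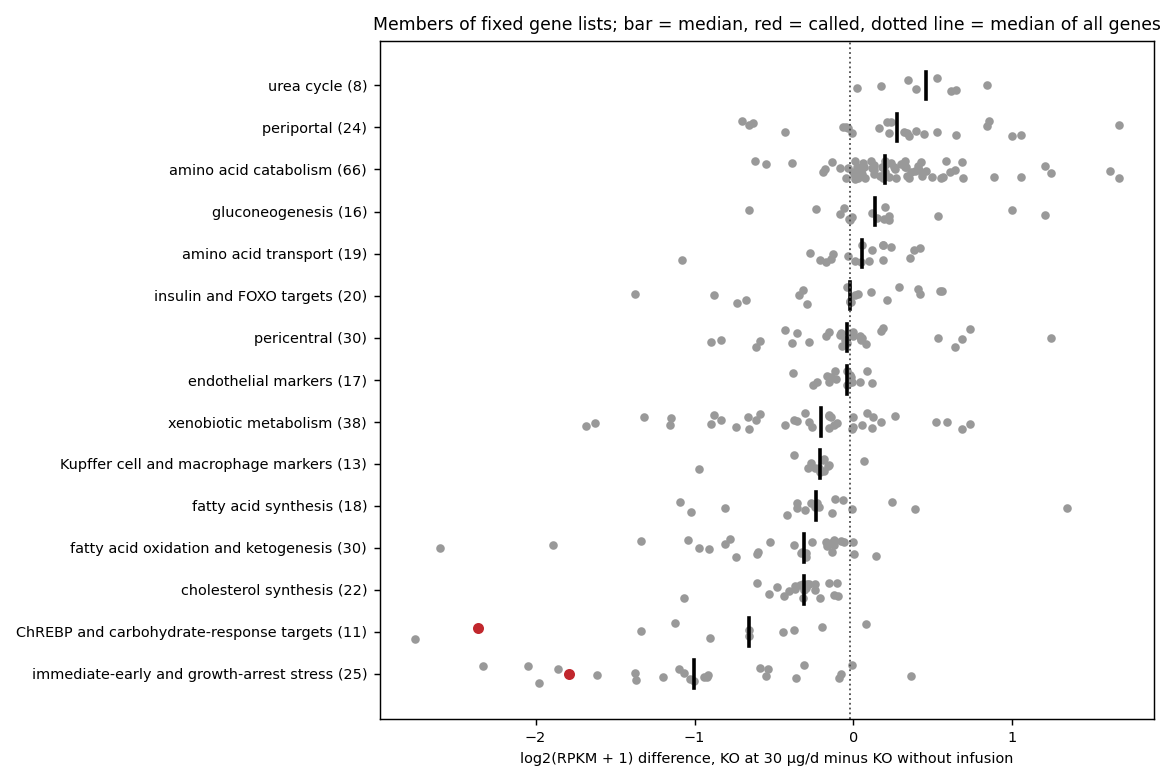
Log2(RPKM + 1) difference of each member of 15 gene lists, low-dose minus uninfused knockout (points; red were called by limma), with list medians as black bars and the median of all 11590 genes as a dotted line. Medians run from 0.46 for the urea cycle to −1.01 for immediate-early and growth-arrest genes, and Txnip and Klf10 are the only red points in these lists.

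Zonation was described without a test, by subtracting the mean log2(RPKM + 1) over 30 pericentral genes from the mean over 24 periportal ones. This index was 1.71, 0.93 and 1.4 in the uninfused and 1.36, 1.69, 2.18 and 1.35 in the low-dose knockout libraries, so the groups overlapped and libraries 4 and 13 had the highest value of each. The difference of means was 0.30, and 0.09 without library 5, 0.12 without library 13, 0.48 without library 4 and 0.30 without libraries 4 and 13. Uninfused wild type liver had 1.68 ± 0.20 (SD, n = 3). Of the periportal genes 16 of 24 were higher in the mean (median 0.28, none called, 7 higher and 0 lower at an unadjusted p under 0.05). Of the pericentral genes 12 of 30 were (median −0.04, none called, 5 higher and 3 lower). The 5 higher were Oat, Rhbg, Lect2, Cyp2a5 and Cyp1a2, and the 3 lower Cyp2c29, Cyp2c37 and Tnfrsf19. Oat and Cyp2a5 lay above every uninfused library and Tnfrsf19 below. Oat, also in the amino acid breakdown list, counts as pericentral here, so its higher level lowers the index. The 7 periportal genes higher at that level were Pck1, Sds, Ftcd, Gls2, Cps1, Asl and Ass1. Each also belongs to the amino acid breakdown, urea cycle or gluconeogenic list, so they are not separate evidence. Glul, glutamine synthetase of the pericentral rim, was at 394, 623.3 and 574.7 against 601, 530.7, 249.8 and 571.1 RPKM, with libraries 4 and 13 the lowest of their groups. Cyp2e1, the ethanol-oxidising cytochrome, was at 4457 ± 1041 (SD, n = 3) and 4649 ± 1006 RPKM (n = 4), and its sign changed when library 4, 6 or 12 was left out. Cyp2c29, of a family whose near-identical members can share reads, was at 1189, 1902 and 1028 against 543.5, 801.9, 1147 and 607.5 RPKM (log2 difference −0.84, limma adjusted p = 0.267).

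Sex-biased genes moved with libraries 4 and 13. Of 24 male-biased genes 22 were higher in the mean at the low dose, with a median of 0.91 that was 0.49 without these libraries, and of 22 female-biased genes 21 were lower, with a median of −0.79 that was 0.12 over the 14 tested without them, where 8 were higher. Some female-biased genes passed the filter on low values only with libraries 4 and 13 included, so the count of 21 partly reflects that selection. No member of either list was called, with 6 male-biased genes higher and 3 female-biased genes lower at an unadjusted p under 0.05. The part of these lists' differences in other results was not tested.

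No marker of another cell type was called by limma. At an unadjusted p under 0.05 the lower markers were 2 endothelial ones (Cdh5 and Stab2), 1 of lymphocytes and neutrophils (Cd79a) and 1 erythroid one (Hbb-bs), and none was higher. These 4 were named after their values were seen. Cd79a, of the B cell receptor, was at 1.864, 1.068 and 0.8376 RPKM without infusion and at 0.7359, 0.2405, 0.7063 and 0.2299 at the low dose (log2 difference −0.60, −0.50 without libraries 4 and 13). Hbb-bs, a beta-globin gene with near-identical copies that can share reads, was at 15.75 and 9.5 RPKM in libraries 5 and 6 and close to 0 in the other 5 libraries. In whole tissue, fewer cells of a type and less RNA per cell cannot be told apart. Summed Kupffer cell and macrophage markers were 354.9 to 376.3 RPKM in uninfused and 286.2 to 345.4 in low-dose knockout liver, with 12 of 13 lower in the mean and a median of −0.21 (−0.19 without libraries 4 and 13). Summed endothelial markers were 200.9 to 208.5 and 168.2 to 213.3 RPKM, and stellate cell markers 198.3 to 211.5 and 193.6 to 224.1. Of 17 endothelial markers 3 were higher in the mean, and 9 without libraries 4 and 13 (median −0.04 and 0.02). All members of these 3 lists were detected in both groups. Summed cholangiocyte markers spread from 79.62 to 194.1 and from 52.06 to 231.8 RPKM, and erythroid markers from 987.5 to 3868 and from 877.5 to 1896. The part of the macrophage, lymphocyte and erythroid markers in other results was not tested.

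Low-dose knockout liver was set beside uninfused wild type liver, with 125 genes called (1.08% of 11590), 42 higher (0.362%) and 83 lower (0.716%). There were 4 without library 3 and 194 without libraries 4 and 13. Uninfused knockout liver differed from the same wild type libraries by 179 calls (1.54%), 92 higher (0.794%) and 87 lower (0.751%), and by 22 without libraries 4 and 13. These comparisons share the wild type libraries, and the latter shares its knockout libraries with the low-dose comparison. Of the 10 genes called for the low dose, Klf10 and Tmem51 were also called against wild type, both lower. Those of the carbohydrate group were not called against wild type, although their intervals were wide, such as −1.32 to 3.55 for Rgs16 on the log2 scale. Gadd45a had an interval of −0.61 to 0.75 and Tat one of −0.66 to 1.06. Against this, Oat, Asns and Ebp, a sterol isomerase, were called lower than wild type, Ebp at 91.0 ± 6.71 (SD, n = 4) against 136.9 ± 3.99 RPKM (n = 3; limma adjusted p = 0.0191). The calls against wild type named here for Klf10, Tmem51, Oat, Asns, Ebp and Lpin1 also passed without libraries 4 and 13.

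Between doses in knockout liver 63 genes were called (0.544%), 35 higher (0.302%) and 28 lower (0.242%) at 150 than at 30 µg/d. The higher share was 55.56%, and 65.62% after median-of-ratios scaling, and 206 genes were called without libraries 4 and 13. The rises included Mt1, a metallothionein, which was at 33.09, 36.5, 27.8 and 26.6 RPKM at the low and at 1970, 139.8, 859.4 and 1071 at the high dose (log2 difference 4.49, limma adjusted p = 0.0239). Without infusion Mt1 was at 428.8, 52.58 and 10.73 RPKM, a range that encloses the low-dose values. Gnat1, a G-protein alpha subunit known from rods, was at 1.57 ± 0.83 and 6.88 ± 2.11 RPKM (SD, n = 4 each; limma adjusted p = 0.00772). Dnajc12, a J-domain cochaperone of aromatic amino acid hydroxylases, was at 5.37 ± 1.19 and 19.8 ± 6.95 RPKM (adjusted p = 0.0464 in limma). Falls at the high dose included Rbbp4, a histone-binding chromatin subunit, at 74.4 ± 4.30 and 28.56 ± 10.47 RPKM (limma adjusted p = 0.0172), and Cyp2c50, at 707.5 ± 73.9 and 341.4 ± 126 (limma adjusted p = 0.0205). The dose differences named for these 5 genes and for Oat, Asns and Atxn1 also passed without libraries 4 and 13. For Rbbp4 and Cyp2c50 the low-dose level was near that without infusion, 67.2 ± 6.57 and 802.2 ± 218 RPKM (SD, n = 3).

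Ces2b, a carboxylesterase of a clustered family whose members can share reads, was at 0.1282, 0.3162 and 1.678 RPKM in uninfused and at 9.215, 4.724, 1.956 and 6.536 in low-dose knockout liver. At 150 µg/d it was at 0.1031, 0.2377, 0 and 0.4876 RPKM. Its low-dose values were above those of both other knockout groups, and it fell from 30 to 150 µg/d (log2 difference −2.33, limma adjusted p = 0.0182), while its difference from uninfused knockout was not called (1.92, limma adjusted p = 0.123).

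**Figure D5:**
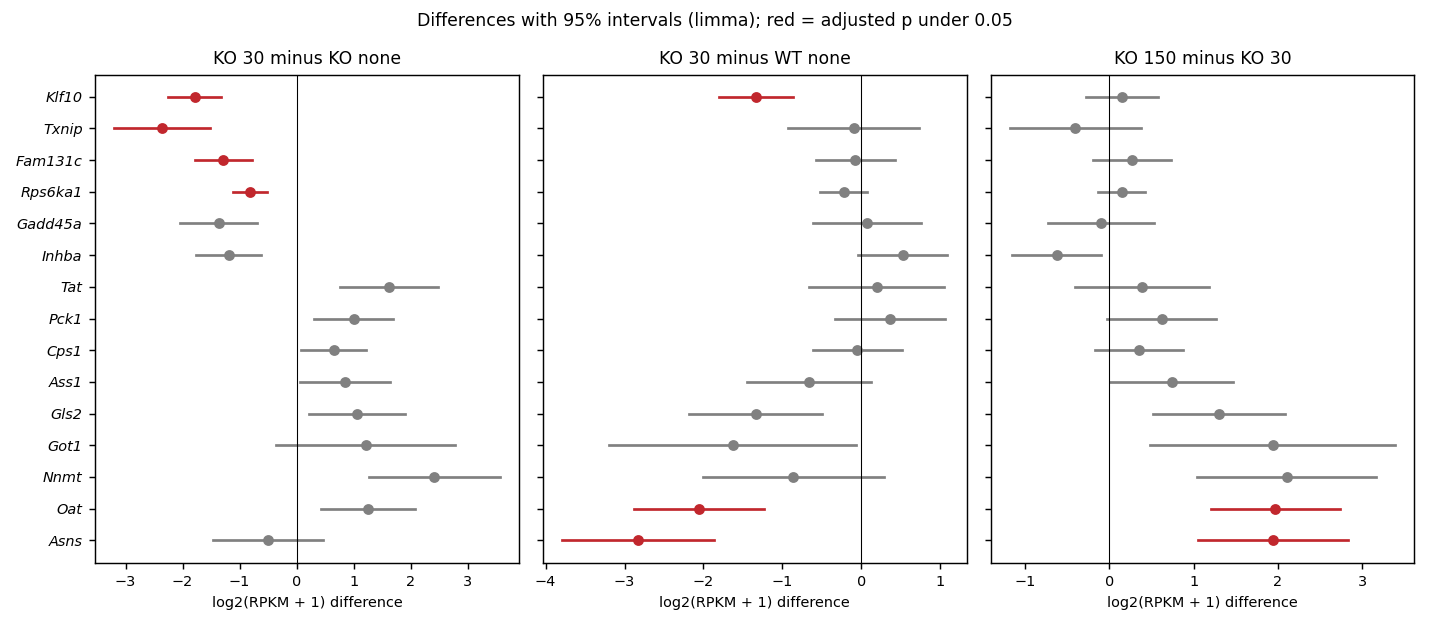
Log2(RPKM + 1) differences with 95% intervals from limma for 15 genes: low-dose against uninfused knockout, low-dose knockout against uninfused wild type, and 150 against 30 µg/d in knockout liver; red marks an adjusted p under 0.05. Klf10, Txnip, Fam131c and Rps6ka1 are red at the left, whereas Oat and Asns are red in the other 2 panels and not at the left.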

How the data were processed

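Liver polyA RNA was extracted with Trizol, purified with DNase and made into strand-specific KAPA libraries, per the labels' protocols. CASAVA 1.8.2, FastQC and the build GRCm38 are named in the submitters' processing notes. The aligner, the counter, its strand setting and the gene annotation are not given in those notes or labels. The deposited values are RPKM, computed by the authors for 24475 genes in 22 libraries, with 5599 genes at 0 throughout. Depth was estimated from the steps between low values, of which 66.1 to 71.6% came out whole within 0.1 of a read (20% by chance), too few for a count test.

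Limma 3.58.1 (R 4.3.3) was fitted to log2(RPKM + 1), which understates changes of low genes, with 6 groups in one fit, no covariate and a mean-variance trend. There were 16 residual and 3.18 prior degrees of freedom, p-values were Benjamini-Hochberg adjusted over the 11590 genes with a mean of at least 0.5 RPKM, and SE is limma's. The script was tested on simulated data. Alternatives were other pseudocounts, filters, scalings and weights, a fit of the compared groups alone, and libraries left out; list counts without libraries 4 and 13 were added after seeing the data. Lists and members were chosen with earlier results of these data known. The lists share members, so their counts are not independent. Genes were named by a rule: called genes, the next genes by p without overlap between the groups and a log2 difference of at least 0.58, a set of standard genes, the members of each list with the smallest p, and the largest changes between doses. Not every gene it took is named. Alb, Khk, Zfp36, 4 cell type markers and list members given by their means only (Mlxipl, Hpd) were named outside it, after their values were seen. So were the pericentral genes Lect2, Cyp2a5, Cyp1a2 and Tnfrsf19. A list member is not reported here. Coordinates are RefSeq on GRCm38, which matched 24375 identifiers. Figures were drawn with matplotlib 3.10.9.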

Additional observations from a re-analysis of the deposited data

Results flagged for a closer look

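Single libraries lay far from the other 3 of the low-dose knockout group for 11 of 107 genes looked at. Chance would give about 1 in 20 for independent genes. These genes share the same libraries and were partly chosen with earlier results known, so the count cannot be tested against that share. Library 11 was high for Txnip (55.67 RPKM) and Gadd45b (3.366). Library 13 was high for Pklr (83.31 RPKM), Ivd (79.66), Fasn (138.4), Cyp2b9 (42.92), Cyp17a1 (5.13) and Dnajc12 (7.134), and low for Stab2 (11.02), an endothelial scavenger receptor. Library 12 was high for Pck1 (1685 RPKM) and library 14 for Lss (12.28), a cholesterol synthesis enzyme. So 7 of the 11 concern library 13, which also stood apart in sex-biased genes.

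The response of Atxn1 to 30 µg/d differed between the genotypes by 1.593 on the log2 scale, by limma's test of that difference. The uninfused and low-dose means were 2.1 and 5.77 RPKM in Gcg KO and 3.49 and 2.27 in wild type liver.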

How the results depend on the processing

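The 10 calls for the low dose became 1 when the compared groups were fitted alone, 21 with array weights (all 10 among them), 3 without libraries 4 and 13, and 1 to 33 with 1 library left out. For 150 against 30 µg/d, the 63 calls became 39 with no filter, 1 with the groups alone, 541 with array weights, 206 without libraries 4 and 13, and 10 to 282 with 1 left out. The lowest counts were 10 to 16 without library 11, 12, 14, 21 or 22, and the highest 123 and 282 without library 13 or 19. For the difference between genotypes, the 1 call became 2 with no filter, 11 with array weights, 0 with the groups alone (1102 genes at an unadjusted p under 0.05 in limma), 0 without libraries 4 and 13 (749), and 0 to 3 with 1 left out; it was 0 without library 1, 2, 4, 9 or 14. For the low dose against wild type, the 125 calls became 194 without libraries 4 and 13 and 4 to 116 with 1 left out, with 4 without library 3, 17 without 2, 28 without 1, 41 without 12 and 52 without 11. For uninfused knockout against wild type, the 179 calls became 22 without libraries 4 and 13 and 9 to 294 with 1 left out. The cause of these changes was not tested, other than that fewer libraries entered. By gene, over 17 settings, Klf10 stayed called in 16, Tmem51 in 15, Atxn1 and Dnajc1 in 14, Mapre3 in 12, Rps6ka1 in 11, Txnip in 10 and Dhrs3 in 9, and over 16 settings Aim1l in 12 and Fam131c in 4. No called gene changed direction in them.

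Of the 11534 genes tested both with and without libraries 4 and 13, 1974 (17.1%) changed sign without them, none of the called ones among them. Alternatives by gene were run for 105 genes, and the uncalled differences among these that changed sign were those of Axin2 (0.024) and Mt1 (0.388) without libraries 4 and 13 and Orm2 (0.015) with median-of-ratios scaling. With 1 library left out, the ranges that crossed 0 were those of Apoa4 (−1.217 to 0.113), Axin2 (−0.284 to 0.104), Cyp2b9 (−2.515 to 0.997), Cyp2c50 (−0.314 to 0.055), Cyp2e1 (−0.057 to 0.24), Ddx3y (−0.12 to 0.043), Gcgr (−0.165 to 0.018), Glul (−0.373 to 0.123), Gnat1 (−0.303 to 0.066), Mt1 (−2.257 to 0.341), Mup20 (−0.268 to 1.755), Orm2 (−0.577 to 0.471), Ppargc1a (−0.08 to 0.349) and Slc38a3 (−0.035 to 0.25). The zonation difference of 0.30 was 0.27 to 0.32 under other pseudocounts and scalings. No paired analysis was possible because replicate numbers are unique to each library. Depth leaves values under about 0.1 RPKM at the level of single reads.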

Other observations

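Beyond the lists, the smallest p-values among uncalled genes without overlap between the groups included lower values of Rnf152, a lysosomal ubiquitin ligase, with means of 6.21 RPKM in uninfused and 3.07 in low-dose knockout liver (limma adjusted p = 0.0542). Clcn6, an endosomal chloride and proton exchanger, had 1.68 and 0.75 RPKM (limma adjusted p = 0.0719), and Slc23a2, a vitamin C transporter, 9.57 and 4.36 (adjusted p = 0.0857 in limma). Higher values were those of Ankrd33b, with 3.13 and 7.06 RPKM (limma adjusted p = 0.0857), Tcea3, a transcription elongation factor, with 18.2 and 40.8 (limma adjusted p = 0.159), and Pxmp2, a peroxisomal membrane protein, with 60.2 and 90.8 (limma adjusted p = 0.166). The wild type means without infusion were 5.82 RPKM for Ankrd33b, 45.9 for Tcea3 and 95.1 for Pxmp2. The long non-coding RNA Dreh (chromosome 17, 64767111 to 64767931) had 0.72 and 1.95 RPKM, against 1.72 in wild type (limma adjusted p for low-dose against uninfused knockout = 0.166). None of these passed the test.

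Fmo5, a flavin monooxygenase, was at 146.7, 168.5 and 151.4 RPKM in uninfused and at 184.3, 224.5, 252.1 and 238.2 in low-dose knockout liver (limma adjusted p = 0.233). It was higher at the low dose in knockout than in uninfused wild type liver (142.7 ± 14.9 RPKM, SD, n = 3; limma adjusted p = 0.0385, and 0.0672 without libraries 4 and 13). Pcp4l1, of a family of calmodulin-binding peptides, was also higher there, with 5.67 ± 0.79 (SD, n = 4) against 1.79 ± 0.76 RPKM (n = 3; limma adjusted p = 0.00968), and lower at 150 µg/d (2.25 ± 0.79, n = 4; limma adjusted p = 0.0182).

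Other lists held no called gene in the low-dose comparison, with these limma counts at an unadjusted p under 0.05. Of 22 interferon-induced genes 19 were lower in the mean (median −0.17, 0 higher and 1 lower), and of 17 proliferation genes 15 were (median −0.30, 0 higher and 1 lower; −0.17 over 16 without libraries 4 and 13). The proliferation genes had a mean log2(RPKM + 1) of 2.70 in library 4 and 2.49 in library 13, against 1.22 to 1.51 in the other 5. Of 23 genes of the ATF4 and endoplasmic reticulum stress responses 15 were higher in the mean (median 0.14, 0 higher and 2 lower), Gdf15, a stress hormone, lying at 55.07, 54.27 and 18.3 against 22.77, 10.52, 7.981 and 1.266 RPKM. The 38 xenobiotic genes had a median of −0.21 (3 higher and 5 lower) that was −0.03 without libraries 4 and 13. The 21 acute phase genes had a median of −0.18 (2 higher and 0 lower), the 24 bile acid genes −0.03 (0 higher and 3 lower) and the 13 mitochondrially encoded genes 0.19 (2 higher and 0 lower).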
